A study of Mus musculus with 127 samples.

Results

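Marrow erythroblasts that lacked Flvcr were compared with wild-type erythroblasts of the same Ter119 class, class B. Members were chosen from the labels: the Flvcr-deleted cells whose class label starts with DB (16 cells) and the wild-type cells whose class label starts with WB (10 cells), 26 of the 127 single cells of the series. Each cell came from murine marrow of strain C57BL/6J and was labelled an erythroblast; the genotype labels read Flvcr deleted or wild type, the labels name no agent for either group, and EPO-treated wild-type cells of the series were not used here. Cells were captured one by one on a microfluidic chip, imaged for the erythroid surface antigen Ter119, and their amplified cDNA was sequenced. The labels give neither the promoter or Cre that removed Flvcr nor the age of a mouse. They also name no animal, so a genotype stands for 1 sample: p-values were not computed, no difference has a replicate check, and every SD describes those cells alone. All cells of a group carried the same code in their column names, a different one in each genotype. Any batch that this code marks, such as a capture, cannot be told apart from genotype.

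Flvcr is a plasma membrane protein known for exporting heme from the cell. Heme is built in erythroblasts along a chain of enzymes that begins and ends in mitochondria, and it is inserted into globin chains to make haemoglobin. Free heme is toxic, and it acts on transcription through BACH1 and on translation through the heme-regulated eIF2 kinase. GATA1 and KLF1 are the transcription factors that switch on the genes of heme synthesis, globins and the red cell membrane while the cell divides a few last times and then leaves the cell cycle. The comparison addressed how loss of the exporter goes with this program in cells of 1 Ter119 class label.

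Levels are log2(RPKM + 1), where RPKM is a transcript's reads scaled by its length and by the reads of the library, and a difference is the mean log2 level of the Flvcr-deleted cells minus that of the wild-type cells. A transcript was called detected from an RPKM of 1 upward, and a gene was called lower or higher at a difference of at least 1 in size, which is a 2-fold change of a well expressed gene and understates that of a gene near 0. The 3100 of 24320 genes with a mean level of at least 1 over the 26 cells were kept. Of these, 831 reached that level in the mean of wild-type cells only and 139 in that of Flvcr-deleted cells only, so such genes had to differ and their counts are descriptions.

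The cells differed in depth and in globin content. Genes detected per cell ran from 644 to 3454 with a median of 1236.5 in Flvcr-deleted cells, and from 1502 to 3747 with a median of 3036 in wild-type cells. Reads per cell were estimated by taking the lowest well-filled peak of RPKM times transcript length as 1 read, and are therefore approximate. Their medians were 3.01 M and 3.79 M, with Flvcr-deleted cell 31 lowest at 0.754 M. Globin transcripts took 0.320% to 96.8% of a Flvcr-deleted cell's summed RPKM, with a median of 79.9%, and 28.9% to 89.2% of a wild-type cell's, with a median of 45.8%. Flvcr-deleted cells 7, 13, 16 and 40 stood apart: globins took 0.320% to 2.71% of their RPKM, Alas2 was listed at 0 in each, and 2456 to 3454 genes were detected. The other 12 Flvcr-deleted cells had globin shares of 48.2% to 96.8% and 644 to 2296 genes detected. The main results are therefore given with and without cells 7, 13, 16 and 40, and some lists and single genes with them only. The more globin a cell held, the fewer genes were detected in it, with Spearman's rho of -0.95 over the 16 Flvcr-deleted and -0.83 over the 10 wild-type cells; the share and the count come from the same library, so this is a description. Normalized Ter119 values overlapped, from 0.313 to 0.494 (median 0.381) in Flvcr-deleted and 0.330 to 0.541 (median 0.452) in wild-type cells. The cells were chosen by a class label that goes with these values, so the overlap is a description.

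**Figure D1:**
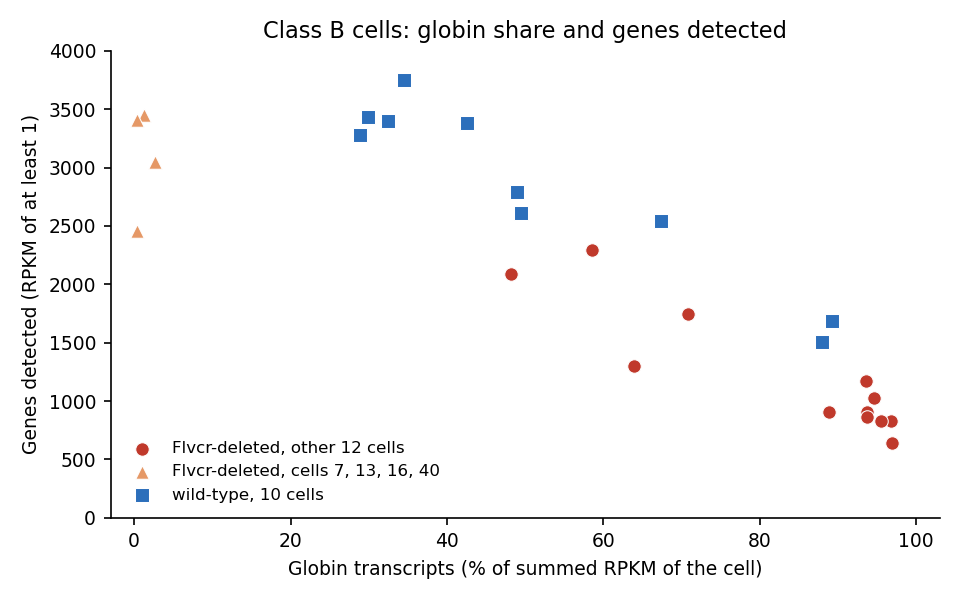
Globin transcripts as a percentage of a cell's summed RPKM (horizontal) against the number of genes detected (vertical), 1 point per class B cell. The 4 low-globin Flvcr-deleted cells lie at the left with 2456 to 3454 genes, and 8 Flvcr-deleted cells lie at globin shares of 88.8% to 96.8% with 644 to 1176 genes, below the wild-type cells 23 and 44 (1502 and 1688 genes).

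The erythroblast label was checked against its defining markers, and 4 cells fell short of it in part. In Flvcr-deleted cells 7, 13, 16 and 40 Alas2 was at 0, the band 3 gene Slc4a1 was under the detection level, and globins took the low shares given above. Gata1 was at 0 in cells 13 and 40, but also in Flvcr-deleted cells 2, 4, 10, 11, 17, 31 and 39, so it did not set the 4 apart. Of 16 erythroid markers, 9 to 16 were detected per Flvcr-deleted cell (9 to 13 in cells 7, 13, 16 and 40) and 14 to 16 per wild-type cell. Car2, the carbonic anhydrase of red cells, was detected in all 26 cells. No cell had 3 or more markers of granulocytes and monocytes, B cells, T and NK cells, megakaryocytes, early progenitors, macrophages, basophils and mast cells, or eosinophils. The defining genes Lyz2, S100a8, Cd79a, Cd3e, Pf4, Cd34 and C1qa were at 0 in all 26 cells. Gp9 and Vwf, of the megakaryocyte list, gave summed RPKM of 0 to 20.6 in Flvcr-deleted and 0 to 139 in wild-type cells, and Mpo and Prtn3 were detected in wild-type cell 42 alone.

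Most genes were lower in Flvcr-deleted cells. The median gene differed by -1.17. Lower genes numbered 1705 of 3100 (55%) and higher genes 139 (4.48%). With every cell scaled to the same sum of non-globin RPKM, the median was -1.17 again, with 1683 lower (54.3%) and 148 higher (4.77%). Without the low-globin cells it was -1.63, with 2102 lower (67.8%) and 72 higher (2.32%). Quantile normalization moved the median gene to -0.41 and the split to 1022 lower (33%) and 497 higher (16%). The log2 ratio of mean RPKM gave 1189 lower and 483 higher genes. Between the 4 Flvcr-deleted and 2 wild-type cells with 1000 to 2000 genes detected, the median gene was at 0, with 928 lower and 836 higher. Each count of lower members below is to be read against the shift of all genes given here. The largest negative differences were those of Dnajc9, a J-domain protein that handles histones, at -6.33, the replication helicase subunit Mcm3 at -6.12, the RNA-binding protein Hnrnpk at -6.02, the acid phosphatase Acp5 at -5.85 and the ribonucleotide reductase subunit Rrm1 and the erythroid nuclear protein Hemgn at -5.74 each. A gene that reached the filter level through wild-type cells only, as Mcm3 did, had its direction set by the filter. The largest positive differences were those of Fabp5, a fatty acid-binding protein, at 4.13, and Krtcap2, a subunit of the oligosaccharyltransferase, at 3.47. The mitochondrial thioesterase Acot2 stood at 3.34 and the G protein gamma subunit Gng5 at 3.11.

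**Figure D2:**
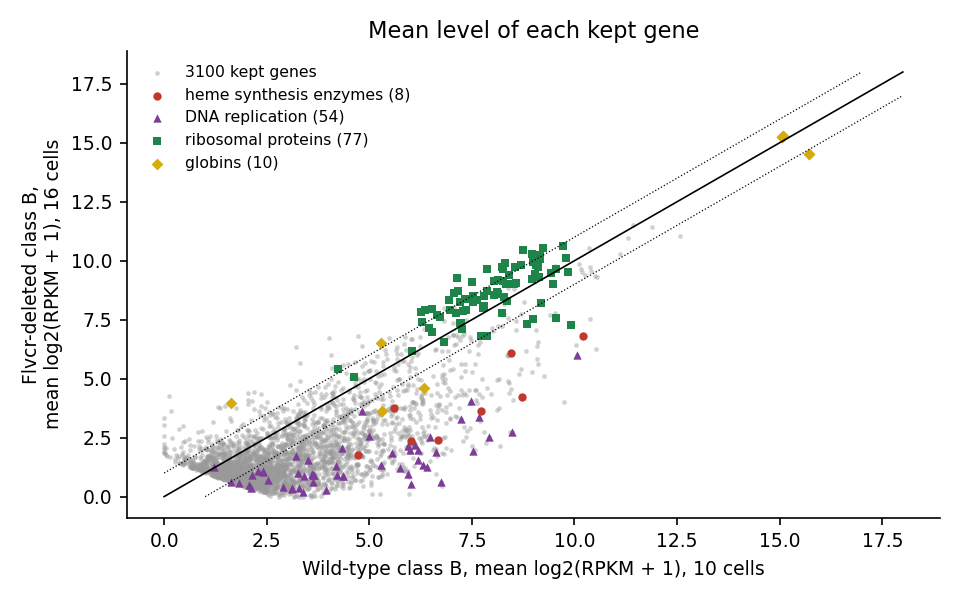
Mean log2(RPKM + 1) of each of the 3100 kept genes in the 10 wild-type (horizontal) and the 16 Flvcr-deleted class B cells (vertical); the solid line marks equal means and the dotted lines a difference of 1. Heme synthesis enzymes and DNA replication genes lie below the lower dotted line except Orc4 (0.03), while 26 of 77 ribosomal proteins lie above the upper one.

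The targeted gene could not be checked at this depth. Flvcr1, listed under its older symbol Mfsd7b, gave an RPKM of 1 in 0 of 16 Flvcr-deleted cells (exact Clopper-Pearson 95% interval up to 20.6%) and in 0 of 10 wild-type cells (up to 30.8%); such intervals cover counting error only. Its relative Flvcr2 (Mfsd7c) was detected in 1 wild-type cell. Hmox1, the heme oxygenase that breaks heme down, was detected in 1 Flvcr-deleted cell and in no wild-type cell. Blvra, which turns the breakdown product biliverdin into bilirubin, differed by -4.38 (detected in 3 of 16 against 8 of 10 cells), while Blvrb, the more abundant reductase of red cells, differed by -0.65. Abcg2, a membrane pump that can carry heme, differed by -1.50 (-0.62 without the low-globin cells) and the heme-regulated kinase Eif2ak1 by -1.22.

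Gata1 (NM_008089), the master regulator of red cell genes, stood lower in the Flvcr-deleted group. Its log2 level was at or near 0 in 9 of the 16 cells and reached 7.76 in cell 1, 7.75 in cell 18, 5.21 in cell 32, 4.30 in cell 16, 3.80 in cell 7, 2.93 in cell 44 and 1.19 in cell 20. In wild-type cells it ran from 4.30 to 9.03 with a median of 7.01. The groups overlapped through those few cells. The mean was 2.06 ± 2.86 (SD, n = 16 cells) against 6.88 ± 1.21 (SD, n = 10 cells), a difference of -4.82. Detection was 7 of 16 cells (43.8%, exact 95% interval 19.8% to 70.1%) against 10 of 10 (lower bound 69.2%). Without cells 7, 13, 16 and 40 the difference was -4.81, and with non-globin scaling -4.91. It was -1.59 between the cells of either group with globin shares of 20% to 80% (4 Flvcr-deleted and 8 wild-type cells), where 3 of those 4 Flvcr-deleted cells had Gata1 detected.

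The other erythroid transcription factors were lower less uniformly. Of 25 factors 16 were kept. Lower ones numbered 11 and higher ones 1, and their median, -1.41, was near that of all genes. Klf1 ran from 0 to 9.57 with a median of 4.19 in Flvcr-deleted cells and from 2.57 to 8.69 with a median of 7.11 in wild-type cells. These ranges overlapped widely, and the difference of -2.04 reversed to 2.24 between the 4 Flvcr-deleted and 2 wild-type cells with 1000 to 2000 genes detected. E2f2, a cell-cycle factor, differed by -3.12, Klf3 by -3.11 and the repressor Gfi1b by -3.11. Tal1 and Lmo2, members of the complex that GATA1 joins on DNA, differed by -1.42 and -1.41. The higher factor was Zfpm1, the GATA1 cofactor also called FOG1, at 1.04. Gata2, which precedes GATA1 in early progenitors, lay under the filter and is not among the 16 kept factors. It was detected in 4 of 16 Flvcr-deleted and in 0 of 10 wild-type cells (difference 1.37).

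Each kept enzyme of heme synthesis was lower in Flvcr-deleted cells. Of the 9 enzymes 8 were kept and 8 were lower, with a median of -3.53. Alas1, the housekeeping form of the first enzyme, was under the filter. All 8 reached the filter level in the mean of either genotype. The number detected per cell was 3 to 8 (median 5) in Flvcr-deleted cells and 7 or 8 in wild-type cells. The median of the 8 was -3.27 with non-globin scaling, -3.03 without the low-globin cells and -2.74 between the cells with globin shares of 20% to 80%.

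Urod, which makes coproporphyrinogen, ran from 0 to 9.48 (median 4.98) against 7.66 to 10.12 (median 8.72). Its mean of 4.22 ± 3.28 against 8.72 ± 0.68 gave -4.50. Ppox, the enzyme before the last, was at a median of 0 in Flvcr-deleted and 6.98 in wild-type cells and differed by -4.29. Alad, the second enzyme, differed by -4.10, Uros, the fourth, by -3.64, and Cpox, which follows Urod, by -1.86. Fech, which inserts the iron, ran from 0 to 7.33 (median 0.46) against 0.12 to 7.02 (median 5.38), so single cells overlapped across the whole range, and differed by -2.97.

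Alas2 (NM_001102446), the erythroid first enzyme, had a difference that depended on the cells compared. In Flvcr-deleted cells it ran from 0 to 10.70 with a median of 7.56, and in wild-type cells from 4.43 to 10.34 with a median of 9.27. The mean was 6.08 ± 4.12 against 8.46 ± 1.86, a difference of -2.37. With cells 7, 13, 16 and 40 left out, it was -0.35. The 3 highest Flvcr-deleted cells (10.48 to 10.70) lay above every wild-type cell. Between cells with globin shares of 20% to 80% (4 Flvcr-deleted and 8 wild-type cells), which also leaves out those low-globin cells, the difference was -2.23. Alas2 followed the globin share among cells, with a rho of 0.85 over 16 Flvcr-deleted and 0.78 over 10 wild-type cells.

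**Figure D3:**
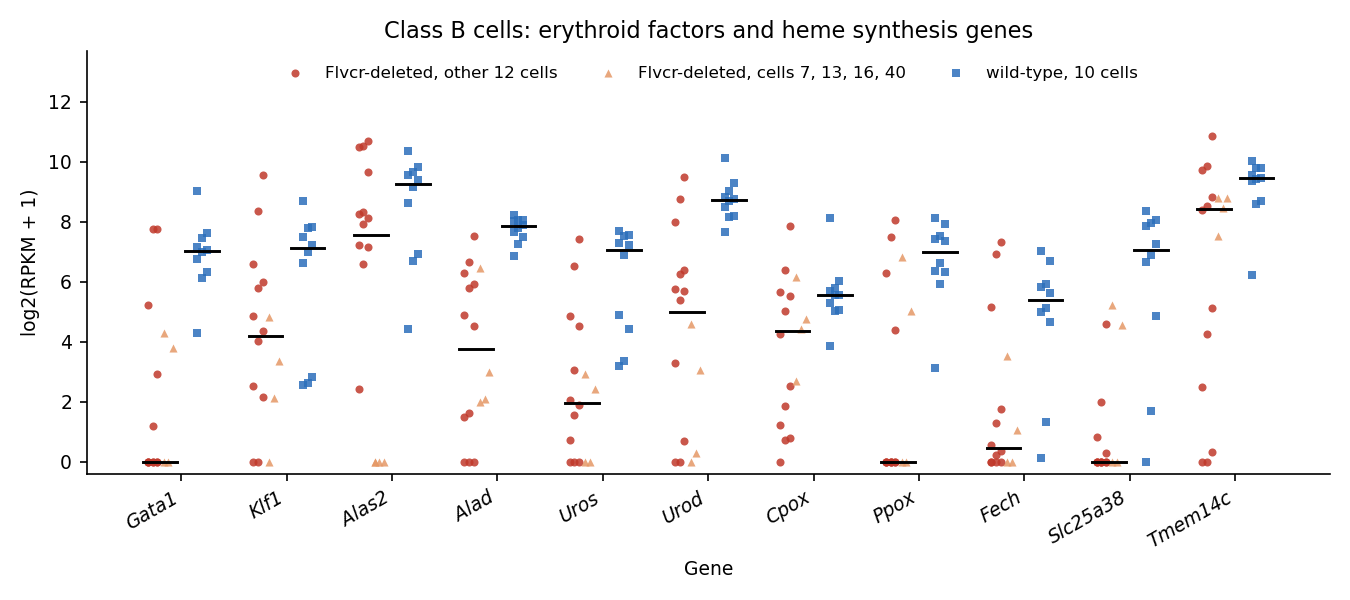
Log2(RPKM + 1) of Gata1, Klf1, 7 of the kept enzymes of heme synthesis in pathway order and 2 mitochondrial proteins of the pathway; each point is 1 class B cell and black bars are group medians (16 Flvcr-deleted, 10 wild-type cells). Wild-type cells cluster high for Alad (6.86 to 8.23) and Urod (7.66 to 10.12), Flvcr-deleted cells spread from near 0 upward, and the 4 low-globin cells (triangles) sit at 0 for Alas2.

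The mitochondrial carriers and helpers of heme synthesis were lower as well. Of 11 listed 9 were kept, 8 lower and 0 higher. Their median was -2.53, and 4 of the 9 reached the filter level through wild-type cells only. Slc25a38, the glycine carrier that feeds the first step, gave signal in 4 of 16 against 9 of 10 cells, a difference of -4.86. Tmem14c, a porphyrin transporter, ran from 0 to 10.87 (median 8.41) against 6.24 to 10.02 (median 9.44), an overlap of most cells, with a mean difference of -2.72. Clpx, which activates ALA synthase, differed by -2.80, Fam210b by -2.87 and the transporter Abcb6 by -2.53. Atpif1, an inhibitor of the ATP synthase, was at 5.99 to 8.32 in Flvcr-deleted and 6.24 to 7.83 in wild-type cells and did not follow the rest, at 0.32.

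Promoter sequence is shown for 4 erythroid genes because GATA1 is known to act on such genes and Gata1 was lower in the Flvcr-deleted cells. Windows of 250 bases before the start were taken from RefSeq starts of build GRCm38.p6, in which AGATAA and TGATAA, the common forms of the GATA site, and CCACACCC, a form of the KLF1 site, were searched on both strands; the motifs do not overlap each other in these windows. AGATAA occurred in 9.99% and TGATAA in 7.94% of all 32851 windows, 1 or both in 16.6%, and CCACACCC in 3.2%. Counted per gene at any of its starts, a GATA form stood in 18.8% of 27025 symbols. Of the heme enzymes, 7 had a window and 3 held a GATA form at some start: Alas2, Cpox and Uros, the last at its second start. Of the 15 genes with the largest lower differences 3 held one (20%), near the share of all symbols. Gata1, Urod, Ppox, Alad, Slc25a38, Tmem14c and Mcm3 held none in theirs. The windows of Alas2 (chrX:150547167-150547416, plus strand), Cpox (chr16:58669958-58670207, plus strand), Klf1 (chr8:84901732-84901981, plus strand) and Hemgn (chr4:46404184-46404433, minus strand) are shown 5′ to 3′, with the GATA letters in capitals (TTATCT and TTATCA are the reverse-strand forms). A match is a description of the letters, not a bound site.
Alas2: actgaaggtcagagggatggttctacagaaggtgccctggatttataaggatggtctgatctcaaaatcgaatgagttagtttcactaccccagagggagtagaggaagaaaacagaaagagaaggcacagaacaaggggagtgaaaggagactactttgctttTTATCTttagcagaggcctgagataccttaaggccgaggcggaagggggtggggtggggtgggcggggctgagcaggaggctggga
Cpox: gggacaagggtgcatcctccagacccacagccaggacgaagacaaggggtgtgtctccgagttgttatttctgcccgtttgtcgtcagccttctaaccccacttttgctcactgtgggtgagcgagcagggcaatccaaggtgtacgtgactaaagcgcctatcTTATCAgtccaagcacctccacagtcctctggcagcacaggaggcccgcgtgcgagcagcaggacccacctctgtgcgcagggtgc
Klf1: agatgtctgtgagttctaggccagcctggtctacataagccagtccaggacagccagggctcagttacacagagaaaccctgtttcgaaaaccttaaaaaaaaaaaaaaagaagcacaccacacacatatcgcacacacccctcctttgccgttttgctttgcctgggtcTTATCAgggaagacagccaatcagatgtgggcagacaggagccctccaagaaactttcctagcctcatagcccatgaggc
Hemgn: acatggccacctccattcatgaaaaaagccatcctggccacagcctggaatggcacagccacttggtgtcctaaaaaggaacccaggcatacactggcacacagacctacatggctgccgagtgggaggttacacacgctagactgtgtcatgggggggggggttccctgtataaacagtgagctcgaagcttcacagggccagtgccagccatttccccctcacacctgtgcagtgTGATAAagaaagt

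The match began 86 bases before the start in Alas2 and in Cpox, 80 in Klf1 and 13 in Hemgn. These 4 genes did not differ alike between the genotypes: Cpox by -1.86, Klf1 by -2.04, Alas2 by -2.37 and Hemgn by -5.74. Hemgn, a nuclear protein of erythroid cells, ran from 0 to 9.00 with a median of 4.46 in Flvcr-deleted cells and from 8.39 to 10.66 with a median of 9.67 in wild-type cells. Flvcr-deleted cell 18 (9.00) alone lay inside the wild-type range. Without the low-globin cells the difference of Hemgn was -4.84, and between cells with globin shares of 20% to 80% it was -3.12.

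The direction of the adult alpha globin genes turned with the low-globin cells. The 11 globin genes gave 10 kept, 4 lower and 2 higher, with a median of 0.20 (0.48 with non-globin scaling). Without cells 7, 13, 16 and 40, 8 of the 10 were higher and 0 lower, with a median of 2.15, while quantile normalization gave -1.95 and scaling every cell to 1 sum -0.69. Hbb-b1, the adult beta chain, ran from 8.26 to 17.96 with a median of 17.16 in Flvcr-deleted and from 13.93 to 17.19 with a median of 14.78 in wild-type cells. The 4 low-globin cells (8.26 to 10.99) lay under every wild-type cell, and the other 12 ran from 15.70 upward. Hba-a1, the adult alpha chain, had medians of 17.72 and 15.40 and a mean difference of -1.19, which became 2.16 without the low-globin cells. The 4 beta-globin symbols have nearly equal values, as have Hba-a1 and Hba-a2, so the copies share reads and are not separate evidence.

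Embryonic globins were higher outside the low-globin cells. Hba-x, the embryonic zeta chain, was found in 11 of the 16 Flvcr-deleted cells (68.8%; exact 95% bounds 41.3% and 89.0%) against 4 of 10 (40.0%; 12.2% and 73.8%), and in 11 of the 12 others against 0 of the low-globin 4. It ran from 0 to 10.32 with a median of 4.53 against 0 to 7.86 with a median of 0, and differed by 2.32 (3.63 without those 4). Hbb-bh1, an embryonic beta-type chain, was at 7.11 to 9.13 in the 12 cells and 0 to 8.16 in wild-type cells, and differed by 1.22 (3.08). Above a globin share of 80% it was at 8.07 to 9.13 in Flvcr-deleted cells and at 8.08 and 8.16 in wild-type cells. Between shares of 20% and 80% it was at 7.11 to 7.99 against 0 to 6.98, and Hba-x differed by 4.47 there. The part of globin share in these differences was not tested. Whether adult globin reads were also counted for these genes is not given in the sources used here. Hbq1a and Hbq1b, the theta chains, went the other way at -1.68 and -1.70 (-0.47 and -0.16 without the low-globin cells).

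Red cell membrane and surface genes were lower in 20 of 24 kept genes and higher in 0, with a median of -2.02. Of the 24, 5 reached the filter level through wild-type cells only. Per cell, 10 to 19 of the 24 were detected in Flvcr-deleted cells (median 14.5). In wild-type cells 20 to 23 were detected (median 22.5), so these counts did not overlap. Over all genes, Flvcr-deleted cells also had fewer detected, 644 to 3454 (median 1236.5) against 1502 to 3747 (median 3036). The largest differences were those of the adhesion protein Icam4 at -4.41, Epb4.2, which anchors band 3 to the skeleton, at -4.21, and stomatin (Stom) at -3.69. Slc4a1, band 3 itself, ran from 0 to 6.43 with a median of 2.97 against 4.88 to 6.78 with a median of 5.85, and differed by -2.91. Cd24a, a surface protein of erythroblasts, was at 7.63 to 11.62 against 9.78 to 10.71 and differed by -0.52, and Tspo2 by 0.56. Among 21 genes of organelle clearance, 10 were kept, 7 lower and 1 higher. Fbxo7, a ubiquitin ligase subunit, differed by -5.14 (4 of 16 against 9 of 10 cells), and by -3.23 between the cells with 1000 to 2000 genes detected. It reached the filter level through wild-type cells only, so its direction was set by the filter. Ube2l6, a conjugating enzyme of ubiquitin and ISG15, differed by -4.47 and the mitophagy receptor Bnip3l by -2.31.

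Iron genes lay near the shift of all genes: their median was -1.43 against -1.17, with 5 of 8 kept genes lower and 0 higher, and quantile normalization gave -0.33 against -0.41. Tfrc, the transferrin receptor, ran from 0 to 8.94 with a median of 6.44 against 4.35 to 8.74 with a median of 7.62. It differed by -1.70, and by 0.48 the other way between the cells with 1000 to 2000 genes detected. The ferritin chains Fth1 and Ftl1 differed by -0.34 and 0.18. Slc40a1, the iron exporter ferroportin, differed by -2.54 and Steap3, a ferric reductase, by -2.08. Of 11 kept genes of iron-sulfur cluster assembly 6 were lower and 1 higher.

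Genes of DNA replication formed the most uniform list beside heme synthesis. Of 57 listed 54 were kept, 53 lower and 0 higher, with a median of -3.08, and 24 of the 54 reached the filter level through wild-type cells only. A Flvcr-deleted cell had 0 to 42 of the 54 detected (median 14) and a wild-type cell 16 to 51 (median 47). Cells 7, 13, 16 and 40 held 20 to 42, and the other 12 held 0 to 28. Mcm3 ran from 0 to 5.38 (median 0) against 0 to 8.39 (median 7.61); wild-type cell 23, one of the globin-rich ones, was at 0 and the other 9 at 5.67 or more. Mcm3 reached the filter level through wild-type cells only, so its direction was set by the filter. Its difference was -2.37 between the cells with 1000 to 2000 genes detected. Rrm1, which makes the precursors of DNA, ran from 0 to 8.64 (median 2.14) against 6.92 to 9.74 (median 8.68), and differed by -5.74 (-3.14 between those cells). Thymidine kinase (Tk1) differed by -5.62, Mcm2 by -5.49, Mcm7 by -5.39 and the origin factor Cdc6 by -5.15. The list's median was -3.48 without the low-globin cells and -3.01 between cells with globin shares of 20% to 80%, but 0 between the 4 Flvcr-deleted and 2 wild-type cells with 1000 to 2000 genes detected, where the median gene was also at 0.

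Mitosis genes were lower in 48 of 55 kept genes and higher in 1, with a median of -3.16; 15 of the 55 reached the filter level through wild-type cells only. Flvcr-deleted cells had 4 to 45 of the 55 detected (median 23.5) and wild-type cells 39 to 54 (median 47). The kinesin Kif22 differed by -5.36, the spindle proteins Nusap1 and Prc1 by -4.94 and -4.82, and Kif20a by -4.67. Some members did not differ by 1: Ube2c, the ubiquitin-conjugating enzyme of mitotic exit, at -0.18, the centromeric histone Cenpa at -0.10 and Cks2 at -0.92. Pttg1, securin, was the higher one at 1.85 (8 of 16 against 1 of 10 cells). Among regulators of cycle exit, the D-type cyclin Ccnd3 differed by -3.83, its partner kinase Cdk4 by -2.92, and Btg1, an antiproliferative gene, by 1.28.

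**Figure D4:**
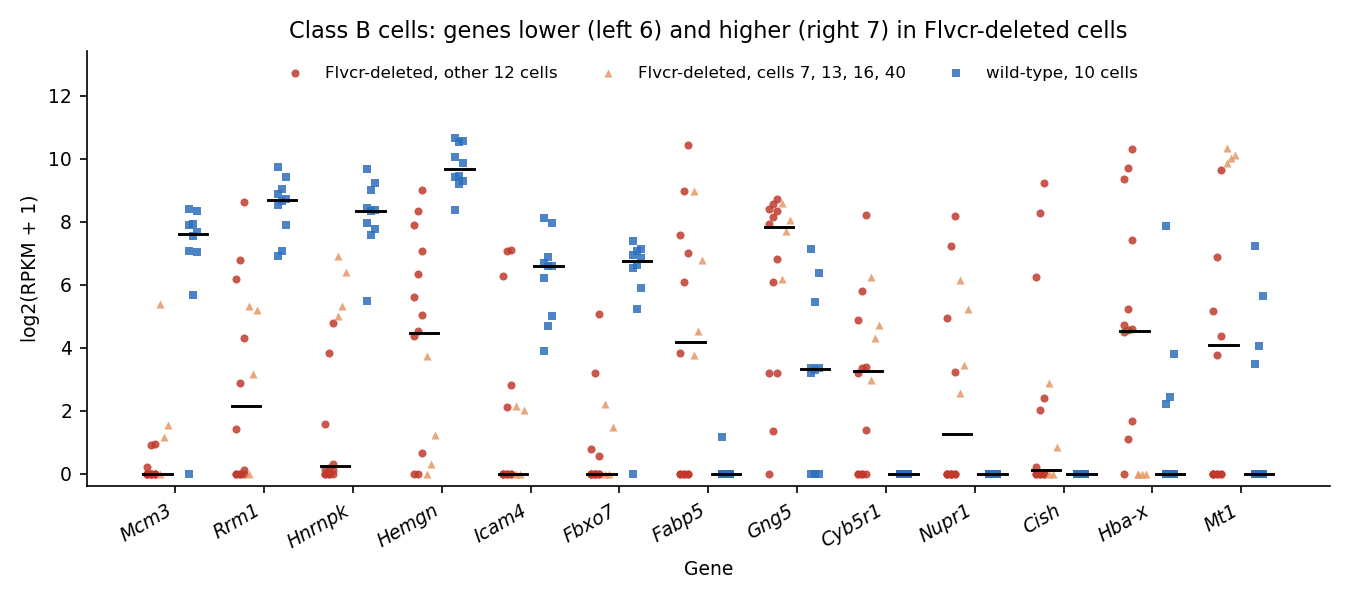
Log2(RPKM + 1) of 6 genes lower and 7 genes higher in Flvcr-deleted cells, 1 point per class B cell, with group medians as black bars (16 Flvcr-deleted, 10 wild-type cells). Mcm3 and Hnrnpk lie at medians of 0 and 0.25 in Flvcr-deleted cells against 7.61 and 8.35, Cyb5r1, Nupr1 and Cish are at 0 in all 10 wild-type cells, and the low-globin cells (triangles) are the highest for Mt1.

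Genes of protein and RNA handling divided by list. Proteasome subunits were lower in 27 of 33 kept genes and higher in 0, with a median of -2.39, led by the base ATPase Psmc4 at -4.02. Per cell, 5 to 32 were detected in Flvcr-deleted cells (22 to 32 in the low-globin cells, 5 to 27 in the others) and 15 to 33 in wild-type cells. In the list of hnRNP and splicing genes 24 of 40 were lower and 1 higher. Hnrnpk ran from 0 to 6.91 (median 0.25) against 5.50 to 9.68 (median 8.35), and was detected in all 4 low-globin cells but in 3 of the other 12. Hnrnpa2b1 ran from 1.64 to 7.12 (median 5.73) against 8.12 to 9.41 (median 8.63) and differed by -3.47. Its ranges did not overlap, which held for 3 of the 3100 kept genes (0.0968%), among them Gid8, a subunit of a ubiquitin ligase, at 0 to 6.68 against 7.63 to 9.64. The list's median moved from -1.33 to 0.01 between the cells with 1000 to 2000 genes detected. Translation factors were lower in 34 of 51 and higher in 2, with Eef2, the elongation factor that moves the ribosome, at -4.43 and Eif5a at -4.42. Chaperones were lower in 13 of 20 and higher in 1, led by Hspa8 at -3.89, which was detected in 4 of 4 low-globin cells and 4 of the other 12.

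Ribosomal protein genes lay on the higher side in the deposited RPKM, but not when every cell was scaled to 1 sum, where their median was -0.14 and that of all genes -1.49. Of 77 kept genes 26 were higher and 5 lower, with a median of 0.71 (0.90 with non-globin scaling and 33 higher). Without the low-globin cells, however, the median was 0.07 with 12 higher and 10 lower. A cell's median level over the list was 10.24 to 10.53 in the 4 low-globin cells, 6.03 to 10.64 in the other 12 and 4.69 to 9.20 in wild-type cells. Rpl26 ran from 6.47 to 11.09 (median 9.63) against 0 to 9.59 (median 8.73) and differed by 2.15, or by 7.93 between the cells with 1000 to 2000 genes detected. Rps12 differed by 1.80 and Rps27 by 1.69. The lower ones were Rpl4 at -2.66, Rpl3 at -1.99, Rpl8 at -1.55, Rpl7a at -1.47 and Rpl5 at -1.06. Genes of short transcripts differed less in general: the median was -0.51 over the 614 kept genes of 311 to 1148 bases and -1.19 to -1.43 in the 4 bins of longer ones. The part of transcript length in the ribosomal result was not tested. Oxidative phosphorylation genes were lower in 28 of 78 and higher in 3, with a median of -0.54, which became -1.33 without the low-globin cells, 0.65 between cells with globin shares of 20% to 80% and 1.15 between those with 1000 to 2000 genes detected. Its direction thus differed between these choices of cells. Of the other lists, mitochondrial ribosomal proteins were lower in 18 of 53 and higher in 3, and nucleolar genes lower in 6 of 14 and higher in 1. Glycolytic enzymes were lower in 7 of 10 and class I antigen presentation genes in 7 of 9. Cytoskeletal genes were lower in 17 of 22 and higher in 3, and histones lower in 3 of 6. Medians were -0.72, -0.44, -1.35, -1.72, -1.96 and -1.09 in that order. Without the low-globin cells they were -1.48, -1.54, -2.37, -2.06, -2.57 and -1.28, and that of all genes -1.63. Mitochondrial ribosomal proteins were then lower in 36 and nucleolar genes in 11, with 0 higher in each.

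Higher genes were few, and several of the largest were detected in all 4 low-globin cells. Fabp5 (NM_001272097) was present in 10 of 16 Flvcr-deleted cells (62.5%, exact 95% bounds 35.4% and 84.8%), among them all 4 low-globin cells, and in wild-type cell 42 alone, at 1.18. It ran from 0 to 10.45 with a median of 4.19, and the difference was 4.13, or 3.54 without the low-globin cells. Cyb5r1, a cytochrome b5 reductase, was detected in 11 of 16 and 0 of 10 cells (3.03, and 2.52 without). Fabp5 and Cyb5r1 reached the filter level through Flvcr-deleted cells only, so their direction was set by the filter. Gng5 ran from 0 to 8.71 (median 7.83) against 0 to 7.15 (median 3.32). Acot2, Krtcap2 and Emp3, a membrane protein, were detected in all 4 low-globin cells and in 4, 3 and 3 of the other 12; their differences without the low-globin cells were 2.06, 1.81 and 1.01.

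Among stress genes the members differed in direction. Of 8 kept genes of the stress response 2 were lower and 1 higher. Nupr1, a stress-induced nuclear protein, was at 0 in all 10 wild-type cells and was detected in 8 of 16 Flvcr-deleted cells, 4 of them low in globin, at up to 8.19 in cell 1. Its difference was 2.56, and 0 between the cells with 1000 to 2000 genes detected. Nupr1 reached the filter level through Flvcr-deleted cells only, so the direction of the 2.56 was set by the filter. The metallothioneins Mt1 and Mt2, which bind metals, differed by 2.35 and 2.39, but by 0.45 and 0.52 without the low-globin cells, where Mt1 stood at 9.86 to 10.34. Ppp1r15a, the phosphatase subunit that reverses eIF2 phosphorylation, differed by -4.54, the stress factor Ddit3 by -0.83 and Atf4 by 0.29. Antioxidant genes were lower in 6 of 19 and higher in 2, the metallothioneins. Without the low-globin cells 8 were lower and 0 higher. Genes of apoptosis and p53 were lower in 3 of 7 and higher in 1, with a median of 0.15. This median became -0.63 without the low-globin cells, with 3 lower and 0 higher.

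Cish (NM_009895), the feedback inhibitor of EPO receptor and STAT5 signalling, was at 0 in all 10 wild-type cells. It therefore reached the filter level through Flvcr-deleted cells only, and its direction in class B was set by the filter. Flvcr-deleted cells held it in 6 of 16 (37.5%, exact 95% bounds 15.2% and 64.6%), against an upper bound of 30.8% for wild-type cells, so the intervals overlapped. The 6 cells were 44 (9.24), 39 (8.28), 1 (6.25), 16 (2.89), 18 (2.42) and 11 (2.04), and the mean difference was 2.01. Of 14 genes of this pathway 4 were kept: besides Cish, Jak2 differed by -1.32, Epor by -0.50 and the STAT5 target Pim1 by -0.17.

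**Figure D5:**
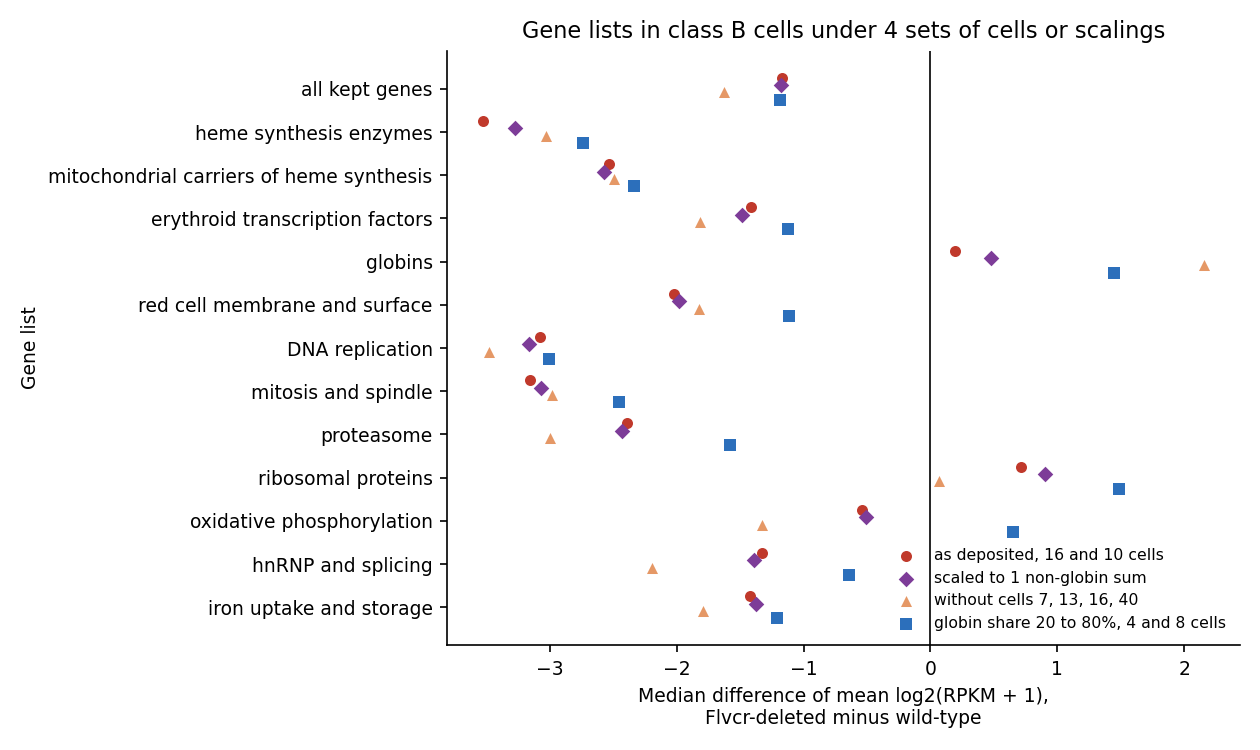
Median difference (horizontal, log2) of the kept members of 12 gene lists and of all kept genes, Flvcr-deleted minus wild-type class B cells, under 4 choices of cells or scaling. The heme synthesis enzymes lie at -3.53 to -2.74 and DNA replication at -3.48 to -3.01, under the median of all genes each time, while globins (0.20 to 2.15) and ribosomal proteins (0.07 to 1.49) lie above 0 in these 4 (not with every cell scaled to 1 sum, -0.69 and -0.14) and oxidative phosphorylation changes sign.

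Cells of like globin share could be set side by side in part, a choice made after seeing the data. Between globin shares of 20% and 80%, 4 Flvcr-deleted cells had 1297 to 2296 genes detected and 8 wild-type cells 2541 to 3747, so depth still differed. There the median gene differed by -1.18, with 1669 lower (53.8%) and 418 higher (13.5%). The heme enzymes detected were 4 to 7 of 8 in those Flvcr-deleted cells and 8 of 8 in each of the 8 wild-type cells. Membrane genes detected were 13 to 19 against 20 to 23 of 24, and DNA replication genes 15 to 28 against 44 to 51 of 54. Above a share of 80%, 8 Flvcr-deleted cells had 3 to 8 heme enzymes, 10 to 18 membrane genes and 0 to 13 replication genes detected, and the 2 wild-type cells had 7 or 8, 23 and 16 or 24. The globin shares of those wild-type cells, 87.9% and 89.2%, lay at the low end of the 88.8% to 96.8% of the Flvcr-deleted cells. Over all genes, 644 to 1176 were detected in those 8 Flvcr-deleted cells, against 1502 and 1688 in those 2 wild-type cells. Depth thus differed here too.

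Loss of detection described the lower genes in another way, from the same RPKM values. Flvcr-deleted cells had fewer genes detected in all, with a median of 1236.5 against 3036 in wild-type cells. The part of depth in these counts was not tested. In 158 of 3100 genes (5.1%) the transcript was detected in at least 8 of 10 wild-type and at most 4 of 16 Flvcr-deleted cells; the reverse pattern, at least 12 of 16 and at most 2 of 10, was met by 0 genes, and by 0 also with every gene tested without the filter. Dnajc9 was detected in 10 of 10 wild-type cells, at 4.34 to 8.23, and in Flvcr-deleted cell 1 alone, at 6.67. Fn3k, a kinase that repairs glycated proteins, Tm9sf1 and the transcription factor Nrf1 were each detected in 8 of 10 wild-type and 0 of 16 Flvcr-deleted cells. Of the 158 genes, 10 belonged to the 54 kept genes of DNA replication, 10 to the 55 of mitosis and 5 to the 24 of the membrane list, among them glycophorin C (Gypc; 3 of 16 against 10 of 10). Without the low-globin cells the count was 324. Cells with at least 1000 genes detected gave 81 lost and 5 of the reverse pattern, and the stricter filter (mean of at least 3) left 2 lost.

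The same contrast in the next Ter119 classes shared no cells with this one and is given side by side. Its cells carried the same column code as the class B cells of their genotype. Any batch that the code marks is thus shared, and the classes are not replicates of each other. In class C (9 Flvcr-deleted and 19 wild-type cells) and class D (5 and 13 cells) the median gene differed by -0.94 and -0.63. Heme enzymes had medians of -2.97 and -1.90, against -3.53 in class B, and DNA replication of -1.84 and -1.26, against -3.08. Gata1 differed by -4.47 and -5.69, against -4.82. Alas2 differed by -1.98 and -2.33, against -2.37, although the lowest globin share of a Flvcr-deleted cell was 64.9% in class C and 76.0% in class D. Globins had medians of 1.46 and 0.80, and ribosomal proteins of 1.27 and 1.75. Cish differed by 1.62 and 5.51, against 2.01. Differences between the classes were not tested.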

How the data were processed

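Single erythroblasts were caught on the Fluidigm C1, imaged for Ter119, amplified with SMART-Seq and tagged with Nextera XT, as the labels' protocols state. TopHat2 2.0.9 and build mm9 are named, per the submitters' processing notes. How reads were counted, and what became of those matching several genes, is not given in the sources used here. Values deposited by the authors are RPKM per RefSeq transcript, 34898 rows for 24320 symbols, and 4 columns matching no sample were not used. The row with the highest mean RPKM stood for each symbol.

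Cells were grouped by genotype and class label (16 and 10 cells). Log2(RPKM + 1) was averaged per group, with a pseudocount of 1, and 3100 genes passed a minimum mean of 1 taken across the 26 cells. Each group counted as 1 sample, so differences are descriptions and no test was made. The script was tested on simulated data. Members and the 37 gene lists (28 of pathways, 9 of markers) were chosen with earlier results of these data known. Named genes were chosen among the 15 largest differences each way, the 4 largest and 4 most abundant members of each list, genes that met the detection rules, and Mfsd7b, Mfsd7c, Hmox1, Gata1, Klf1, Alas2, Tfrc, Cish and Kit (detected in 0 of the 26 cells); the embryonic globins and Gata2 stand beside them as list members. Reads per cell are an estimate, in which the lowest well-filled peak of RPKM times transcript length (GENCODE vM21) was taken as 1 read. Alternatives were other pseudocounts, filters, scalings and sets of cells. Promoters are RefSeq's on GRCm38.p6, and no coordinates of mm9 are given. Python 3.11.15, numpy 2.4.6, pandas 2.3.3, scipy 1.17.1 and matplotlib 3.10.9 were used. A few list members are counted in their lists and not reported here by name.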

Additional observations from a re-analysis of the deposited data

Results flagged for a closer look

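In 5 of 22 results looked at for single cells far from their group, 1 wild-type cell of the 10 lay apart. Its gap exceeded the 95% critical value of Dixon's ratio for 10 values. Levels such as those of Fabp5 pile up at 0, where that value gives no chance rate, so the flags are descriptions. Wild-type cell 23, which had a globin share of 87.9% and 1502 genes detected, was the low one in 3 of them. It had Mcm3 at 0, where the other 9 wild-type cells had 5.67 to 8.39, Fbxo7 at 0 against 5.23 to 7.38, and Hnrnpk at 5.50 against 7.59 to 9.68. The 8 Flvcr-deleted cells of globin shares above 80% had 644 to 1176 genes detected. Wild-type cell 39 had the embryonic globin Hba-x at 7.86 against 0 to 3.82 in the others. Wild-type cell 42 had Fabp5 at 1.18 while the others were at 0, and it was also the cell with Mpo and Prtn3.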

How the results depend on the processing

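No paired analysis was possible because each group counts as 1 sample and cell numbers in the labels name single cells that share nothing across genotypes. The median gene stayed between -1.34 and -1.07 when each of the 26 cells was left out in turn, genes lower between 1612 and 1820 and genes higher between 109 and 174. The sign differed from the one reported in 6 of 247 alternatives for 19 single genes (Hbb-b1 in 4, Klf1 and Tfrc) and in 11 of 179 for 12 list medians. The globin median stood at -0.69 with every cell scaled to 1 sum, -1.95 with quantile normalization, -0.07 over 1000 to 2000 genes and -1.35 over at least 1000 genes. The oxidative phosphorylation median was 0.04 with quantile normalization and 0.56 to 1.15 with the ratio of mean RPKM and in the 3 sets of cells chosen by genes detected or globin share, and the ribosomal protein median was -0.14 with every cell scaled to 1 sum.

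Between cells with 1000 to 2000 genes detected (4 and 2 cells), Klf1 turned to 2.24, Tfrc to 0.48 and the splicing median to 0.0087, the DNA replication median became 0, the carrier median -1.38 and the ribosomal protein median 2.70, Mcm3 stood at -2.37, Rrm1 at -3.14, Fbxo7 at -3.23, Nupr1 at 0 and Rpl26 at 7.93, and 928 genes were lower and 836 higher; the cause was not tested. With a pseudocount of 10, 725 were lower and 70 higher, the carrier median was -1.12 and the mitosis median -1.60. With 0.1, DNA replication stood at -4.92 and membrane genes at -3.34. A stricter filter (mean of at least 3) kept 872 genes, of which 479 were lower, 61 higher and 2 lost in detection, and no filter gave a carrier median of -1.63. Quantile normalization gave 1022 lower, 497 higher and a carrier median of -1.28, and the ratio of mean RPKM gave 483 higher.

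Without cells 7, 13, 16 and 40, 72 genes were higher and 324 lost in detection, of which 151 were among the 158. Cells with at least 1000 genes detected gave 469 higher, 81 lost and 5 gained. The shared Ter119 range gave 101 lost. Globin shares of 20% to 80%, an alternative chosen after seeing the data like leaving out each cell, gave 418 higher, 290 lost (110 among the 158) and 7 gained. Detection was not compared over 1000 to 2000 genes, which leaves 2 wild-type cells. With 10 wild-type cells, a gene detected in 0 of them allows a share of up to 30.8%.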
